A study of Rattus rattus with 18 samples.

Results

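The mature strands of the miR-9a hairpin, rno-miR-9a-5p and rno-miR-9a-3p, were followed in the core and the peri region of the brain of 9 rats. They are named by their probes and account for 2 of the 761 miRNA probes on the array. The pair was selected on the way the tMCAO and sham-operated rats differed between regions, first seen for the 3p arm. Core against peri in these rats, and tMCAO against sham, are therefore given as values with no test. The rats were Sprague-Dawley animals whose age was not given in the sources used here. Of these, 3 were sham-operated controls, which undergo the surgery alone, and 3 were subjected to transient middle cerebral artery occlusion (tMCAO), in which a filament closes the artery and is then withdrawn. A further 3 were labelled remote limb postconditioning (PostC), and the sources do not say whether these animals also underwent tMCAO. Each rat gave 1 array of core and 1 of peri tissue, 18 single-colour (Cy5) arrays in all, with no further genotype or agent named. The sample labels assign temporo-parietal cortex to the core and striatum to the peri arrays, whereas the study's text assigns them the other way round. Core and peri are used here as in the sample titles. In each treatment the regions are also different brain structures, so region and position relative to the lesion cannot be told apart. In bulk tissue, fewer cells of a type and less RNA per cell cannot be told apart either.

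MicroRNAs are cut from a hairpin precursor, and a strand of the resulting duplex is loaded into an Argonaute protein, which it guides to messenger RNAs that pair with its seed, bases 2 to 8. miR-9 is a conserved miRNA of the nervous system, known for its part in the switch of neural progenitors to neurons. Both of its arms accumulate in brain. The 5p arm is known to target the transcriptional repressor REST, which silences neuronal genes, and the 3p arm its corepressor CoREST.

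The sequences below are the targets of the probes as given in the array files, 5′ to 3′, with the seed in capitals. They show that the arms, and the other probes of similar name, carry different seeds.
rno-miR-9a-5p: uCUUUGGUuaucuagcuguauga
rno-miR-9a-3p: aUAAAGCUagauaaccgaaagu
rno-miR-9b-5p: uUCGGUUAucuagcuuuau
rno-miR-9b-3p: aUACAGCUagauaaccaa
Each of these 4 seeds occurred on 1 probe of the 761. The miR-9a arms are complementary to each other over 12 unbroken bases, shown next in capitals, as strands of a common hairpin are.
rno-miR-9a-5p: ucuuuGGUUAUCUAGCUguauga
rno-miR-9a-3p: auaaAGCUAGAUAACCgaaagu
The targets of the 5p and 3p arms hold 34.8% and 31.8% of G and C, against a median of 50% over the 532 probes tested. Both miR-9a arms were detected on all 18 arrays and ranked among the brightest miRNA probes, the 5p arm between places 1 and 61 and the 3p arm between places 4 and 55. The median of the 4 spots of the 5p probe ranged from 3140 to 37525 intensity units and that of the 3p probe from 3999 to 27388. The spots of a probe agreed closely, with an SD of at most 0.20 (5p) and 0.21 (3p) on the log2 scale. The miR-9b probes were detected on 4 arrays each, with spot medians of 40.4 to 161 (5p) and 39.2 to 149 (3p), and are not followed further.

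Across the arrays, 188 to 605 probes were detected per array and the median miRNA spot lay between 49.1 and 261 units. Precision is limited by how few arrays there are, 3 per treatment and region. The core arrays of PostC rats 1 and 3 were the least alike of any group and region (r = 0.83), and the array of rat 3 had the most probes detected, 605. By the median correlation with the other arrays, the core arrays of PostC rat 3 and of sham rat 2 were the lowest, both at 0.85. The arms in PostC rats are therefore also given without rat 3.

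The level of an arm is its normalized log2 intensity, so that 1 unit is a doubling. It is relative to the other miRNAs of the array and is not compared between probes. In sham-operated rats 1, 2 and 3 the 5p level was 13.91, 14.79 and 14.36 in core. In peri the same rats gave 13.96, 14.78 and 14.27. The core and peri of each sham-operated rat were thus nearly level for this arm, and the rats differed more than the regions. After tMCAO the 5p level was 13.12, 11.08 and 13.20 in core. The peri arrays gave 13.61, 13.62 and 14.25. All 3 tMCAO cores lay below all sham cores and below all tMCAO peri arrays, with rat 2 the lowest. In PostC rats the 5p level was 13.41, 13.66 and 14.67 in core. Their peri arrays gave 14.70, 14.37 and 13.13. Rat 3 ran against the other PostC rats, with the higher value in core.

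The 3p level in sham-operated rats 1, 2 and 3 was 13.59, 14.74 and 13.54 in core. The values in peri were 12.47, 14.02 and 13.07. Each sham-operated rat had the higher 3p level in core. After tMCAO the 3p level was 12.94, 11.54 and 13.14 in core. The peri arrays of these rats gave 13.46, 13.72 and 14.00. Each of these rats had the lower level in core, the reverse of the sham-operated rats, and no tMCAO core reached a sham core. In PostC rats the 3p level was 12.76, 13.74 and 13.24 in core, and in peri 14.04, 13.79 and 14.08. The peri arrays of the PostC rats were the tightest group for this arm.

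**Figure D1:**
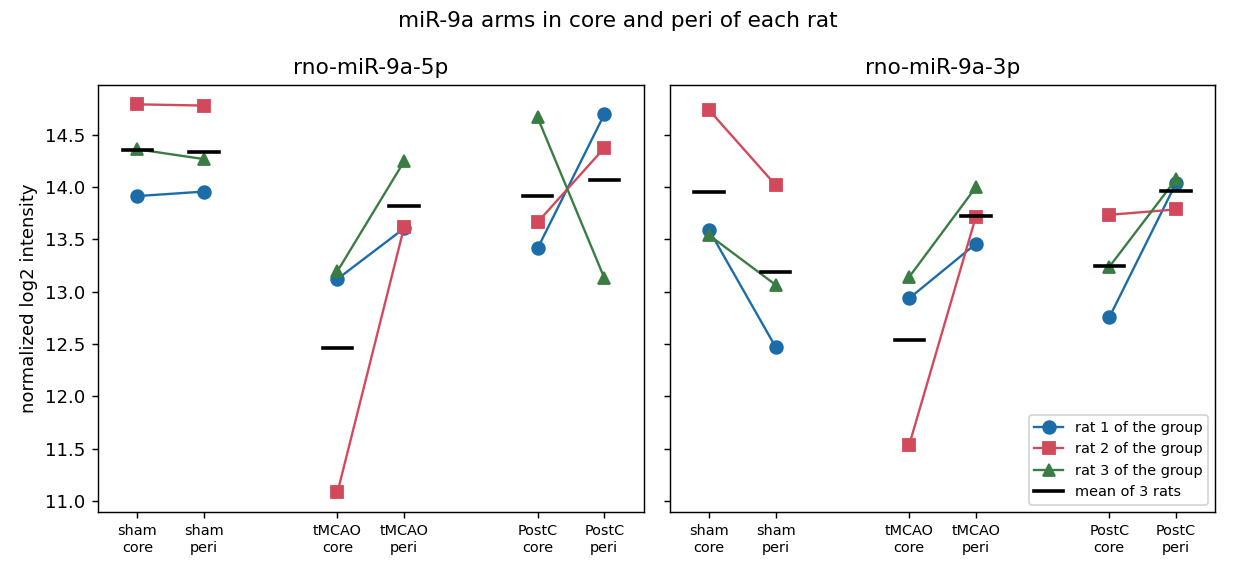
Normalized log2 intensity of miR-9a-5p (left) and miR-9a-3p (right) on the core and peri array of each rat, with a line joining the arrays of 1 rat and a black bar for the mean of 3 rats. The 5p lines are flat in sham-operated rats and the 3p lines fall from core to peri, whereas after tMCAO the lines of both arms rise from core to peri.

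Ordered by mean, the 5p level was highest in sham core (14.36 ± 0.44, SD, n = 3 rats here and below), followed by sham peri (14.34 ± 0.42), PostC peri (14.07 ± 0.82), PostC core (13.92 ± 0.66) and tMCAO peri (13.82 ± 0.37). tMCAO core was the lowest at 12.47 ± 1.20. Neighbours in this order overlapped, except that tMCAO core did not overlap tMCAO peri. For the 3p arm PostC peri (13.97 ± 0.16) and sham core (13.96 ± 0.68) led. tMCAO peri (13.73 ± 0.27), PostC core (13.24 ± 0.49) and sham peri (13.18 ± 0.78) followed, and tMCAO core was again the lowest at 12.54 ± 0.87. All neighbours in the 3p order overlapped.

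Within rats, the arms behaved differently in the sham-operated group. The 5p difference between core and peri was -0.043, 0.012 and 0.094 in rats 1, 2 and 3, a mean of 0.021 ± 0.069. These values straddled 0. The 3p difference was 1.12, 0.72 and 0.48, a mean of 0.77 ± 0.33 or 1.71-fold more in core. This mean was 0.60 without sham rat 1 and 0.80 without sham rat 2. The 3p difference was positive in 3 of 3 rats, as was that of 21.8% of all tested probes. A larger difference in either direction was seen in 10.5% of the tested probes for the 3p arm and in 95.5% for the 5p arm. With each array's trend over the G and C content of the probes removed, the 3p difference was 0.92, 0.12 and -0.011, a mean of 0.34 ± 0.50, and the 5p mean was -0.32 ± 0.14.

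After tMCAO both arms were lower in core. The 5p difference was -0.48, -2.54 and -1.05 in rats 1, 2 and 3, a mean of -1.36 ± 1.06 or 2.56-fold less in core. The 3p difference was -0.52, -2.18 and -0.86, a mean of -1.19 ± 0.88 or 2.28-fold less. The values of the arms ran side by side in each of these rats, and rat 2 had the widest gap for both. The same sign in 3 of 3 tMCAO rats was shown by 24.6% of the tested probes, while larger differences were found in 2.82% (5p) and 4.32% (3p) of them. Without tMCAO rat 2 the means were -0.77 (5p) and -0.69 (3p). With arrays scaled to their medians they were -0.60 and -0.43, and the 3p arm was then lower in core in 2 of 3 rats; this scaling moved the median of all tested probes from -0.03 to 0.11.

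**Figure D2:**
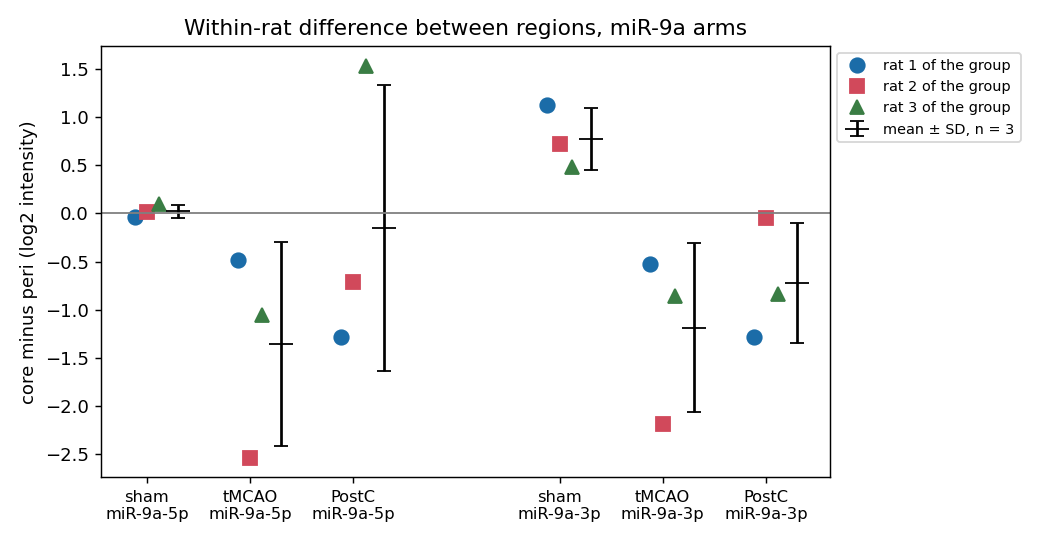
Core minus peri of the normalized log2 intensity in each rat, for miR-9a-5p (left) and miR-9a-3p (right) in the 3 treatments, with the mean ± SD (n = 3) in black and a grey line at 0. The 3p values lie above 0 in all 3 sham-operated rats and below 0 in all tMCAO and PostC rats, while the 5p value of PostC rat 3 (1.53) lies apart from those of the other PostC rats.

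Set against sham-operated rats region by region, both arms were lower in core. There the 5p level after tMCAO was 1.89 below that of sham-operated rats on the log2 scale, or 3.70-fold lower, and the groups did not overlap. The 3p level in core was 2.67-fold lower, again with no overlap. Without tMCAO rat 2 these values were 2.29-fold and 1.89-fold. Among all tested probes 24.2% had every tMCAO core below every sham core. In peri the 5p level was 1.42-fold lower after tMCAO and the 3p level 0.54 higher on the log2 scale, and both overlapped the sham-operated rats. Single rats moved these values as well. The 3p difference in peri was 0.18 without sham rat 1 and 0.96 without sham rat 2, the latter with no overlap. That of 5p was -0.29 without sham rat 2, and -0.70 without sham rat 1 or -0.72 without tMCAO rat 3, both then with no overlap. Each tMCAO rat's mean over both regions was also set against the sham-operated rats. For 5p it was 14.35 ± 0.43 in sham-operated and 13.15 ± 0.71 in tMCAO rats, with no overlap, and the difference was -0.80 without tMCAO rat 2. In 23.3% of all 532 tested probes every tMCAO rat lay below every sham-operated rat. For 3p it was 13.57 ± 0.71 and 13.13 ± 0.48, a difference of -0.44, with overlap. This difference rested on single rats, at -0.19 without tMCAO rat 2, -0.034 without sham rat 2 and -0.71 without sham rat 1. The 3p difference was -0.72 with plain background subtraction, then with no overlap, and -0.70 with median scaling. With the G and C trend removed the 5p means were 14.20 ± 0.23 and 13.34 ± 0.57, and the 3p means were 13.39 ± 0.35 and 13.38 ± 0.33.

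**Figure D3:**
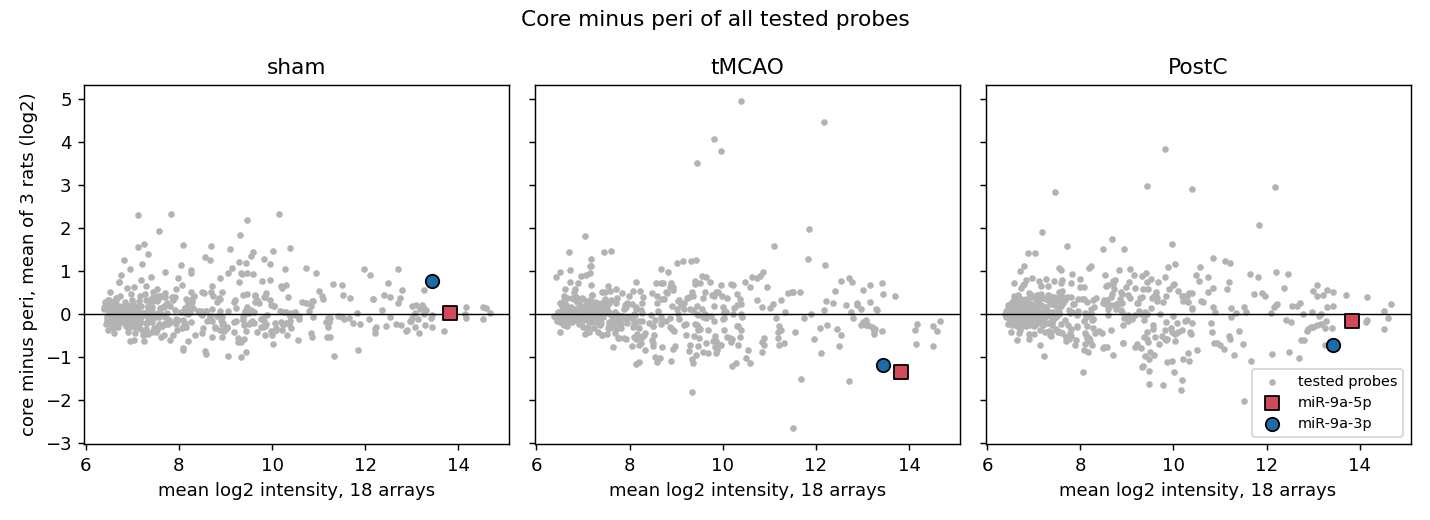
Core minus peri (log2, mean of 3 rats) of the 532 tested probes against their mean log2 intensity over the 18 arrays, in sham-operated, tMCAO and PostC rats, with the miR-9a arms marked. The 3p arm moves from 0.77 in sham-operated rats to -1.19 after tMCAO and -0.72 in PostC rats, while the 5p arm moves from 0.021 to -1.36 and -0.15.

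The balance of the arms was read as the 5p level minus the 3p level on the same array. Its size depends on the probes, so only its change between arrays is described. In sham-operated rats 1, 2 and 3 the arm difference was 0.32, 0.055 and 0.82 in core. In peri it was 1.49, 0.76 and 1.20. Every sham-operated rat thus had the smaller 5p excess in core, by 0.75 ± 0.39, and among the 156 hairpins with both arms tested 18.6% did likewise in all 3 rats. After tMCAO the arm difference was 0.18, -0.45 and 0.06 in core. The peri arrays held 0.15, -0.10 and 0.25. All tMCAO peri arrays lay below all sham peri arrays, with a difference of means of -1.05, and so did all PostC peri arrays (also -1.05). How many hairpins did likewise in peri was not counted. In core the difference of tMCAO from sham was -0.47, with overlap. Core minus peri of the arm difference in tMCAO rats was -0.17 ± 0.20, negative in 2 of 3 rats. It was -0.27 to -0.078 with single rats left out. Averaged over the regions of a rat, the arm difference was 0.78 ± 0.32 in sham-operated and 0.014 ± 0.25 in tMCAO rats, with no overlap. In 21.8% of the hairpins the tMCAO rats likewise lay below all sham-operated rats. With the G and C trend removed these means were 0.82 ± 0.25 and -0.038 ± 0.28. The shift in peri was already present in the spot intensities before normalization. The 5p probe was 1.63 to 2.76 times as bright as the 3p probe in sham peri. It was 0.94 to 1.22 times as bright in tMCAO peri. In core these ratios overlapped, at 1.03 to 1.75 in sham-operated and 0.79 to 1.17 in tMCAO rats.

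In PostC rats 1, 2 and 3 the arm difference was 0.66, -0.07 and 1.43 in core. Their peri values were 0.66, 0.59 and -0.94. Rat 3 held both the highest core and the lowest peri value of its group. In the unprocessed spots of this rat the 5p median was 37525 units in core and 8833 in peri, whereas the 3p median was 14832 and 16360. The deposited normalized intensities of this rat gave a 5p to 3p ratio of 2.86 in core and 0.54 in peri.

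**Figure D4:**
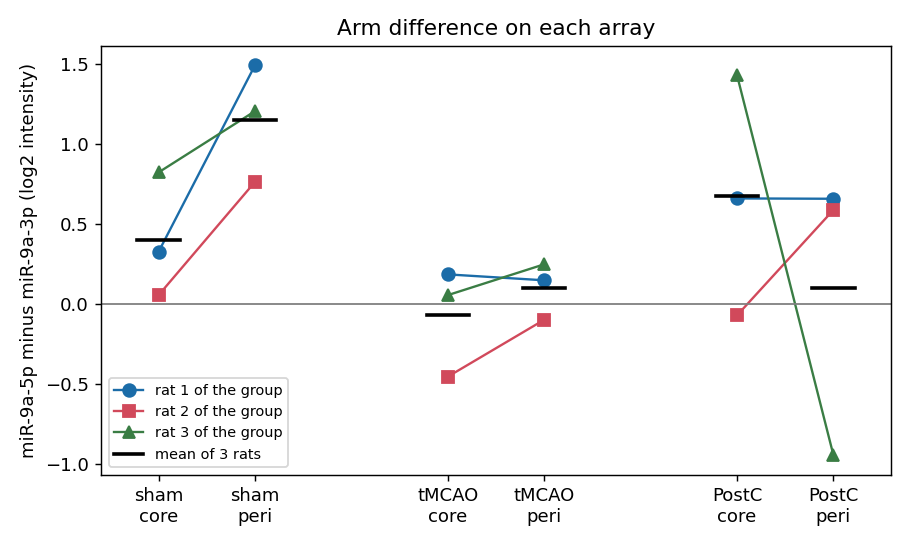
miR-9a-5p minus miR-9a-3p (log2 intensity) on the core and peri array of each rat, with a line joining the arrays of 1 rat and a black bar for the mean of 3 rats. The tMCAO arrays lie between -0.45 and 0.25, the sham peri arrays between 0.76 and 1.49, and PostC rat 3 runs from 1.43 in core to -0.94 in peri.

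The PostC rats did not enter the choice of the pair, and core against peri was tested in them with limma, the 3 treatments sharing an estimate of the spread. The 3p difference was -1.28, -0.051 and -0.84, a mean of -0.72 (SE 0.33, 95% confidence interval -1.45 to 0.0027). Core was lower in 3 of 3 PostC rats, as for 10.2% of the tested probes, and in 2 of 3 rats after quantile normalization. The 3p arm did not pass the test (limma with Benjamini-Hochberg adjustment, adjusted p = 0.513), which 4 of 532 probes passed (0.752%), all higher in core. The 5p difference was -1.28, -0.71 and 1.53, a mean of -0.15 (SE 0.49, limma, adjusted p = 0.925), with an interval of -1.25 to 0.94. Without PostC rat 3 the means were -0.67 for 3p and -0.99 for 5p, with adjusted p of 0.387 and 0.239 in limma, and 13 probes passed. The 3p mean was -0.44 without PostC rat 1, and the 5p mean was 0.41 without PostC rat 1 and 0.13 without PostC rat 2.

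The arm difference in PostC rats changed from peri to core by 0.0021, -0.66 and 2.37, a mean of 0.57 (SE 0.52, 95% confidence interval -0.58 to 1.73, limma, adjusted p = 0.578). Of the 156 arm pairs 1 passed (0.641%), that of miR-149, and 24 had an unadjusted p under 0.05. The mean of the miR-9a pair was -0.33 without PostC rat 3, opposite in sign, and 1.19 without PostC rat 2 (adjusted p = 0.417 and 0.227, limma).

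The mean of both regions was then set beside that of the other groups. The pair was chosen on the tMCAO and sham-operated arrays, which enter these differences, so they are given as values with their SE from limma and without a test of the arms. For 5p the rat mean in PostC rats was 13.99 ± 0.08, between those of sham-operated and tMCAO rats. It was 0.85 above the tMCAO rats (SE 0.32), and the rats of these groups did not overlap. In 18.6% of all 532 tested probes every PostC rat lay above every tMCAO rat. The difference was 0.45 without tMCAO rat 2 and 0.89 without PostC rat 3. Against sham-operated rats the 5p difference was -0.35 (SE 0.32), -0.13 without sham rat 2, -0.56 without sham rat 1 and -0.31 without PostC rat 3. With plain background subtraction it was -0.68, and with the G and C trend removed -0.21.

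The 3p rat mean in PostC rats was 13.61 ± 0.19. It was 0.47 above the tMCAO rats (SE 0.34), 0.22 without tMCAO rat 2 or with the G and C trend removed, and 0.45 without PostC rat 3. It was 0.04 above the sham-operated rats (SE 0.34) and 0.0092 without PostC rat 3. The sign of this last difference changed with plain background subtraction (-0.24), with median scaling (-0.16), without sham rat 1 (-0.24) or 3 (-0.10) and without PostC rat 2 (-0.04). Over all 532 probes 30 passed the test of PostC against tMCAO (5.64%) and 1 that of PostC against sham (0.188%).

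The arms were not the closest match to each other over the 18 arrays. Their levels correlated at r = 0.71, which put the 3p arm at place 19 among the probes most like the 5p arm, and the 5p arm at place 25 for the 3p arm. Most like the 5p arm were miR-384-3p (r = 0.89), miR-137-3p (r = 0.85) and miR-384-5p (r = 0.81). Most like the 3p arm were miR-582-5p (r = 0.92), miR-29c-3p (r = 0.89) and miR-30a-5p (r = 0.84). These are descriptions over 18 arrays that share animals and normalization. All 6 probes have targets with 27.3% to 45.5% of G and C, below the median of those tested.

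Rat by rat, these neighbours followed the arms in part, on the same arrays that chose them. miR-582-5p, the closest to the 3p arm, was higher in core in all sham-operated rats (1.07, 0.98 and 0.73) and lower in all tMCAO rats (-0.42, -1.83 and -1.17). miR-384-3p, the closest to the 5p arm, was higher in core in the sham-operated rats (0.91, 1.28 and 0.92), where the 5p arm was level. In tMCAO rat 1, where the 5p arm was at -0.48, its neighbours miR-384-3p, miR-137-3p and miR-384-5p were higher in core (0.74, 1.06 and 0.91). The split of the arms in PostC rat 3 was shared by their neighbours. In that rat core minus peri was 1.95, 0.55 and 1.46 for miR-384-3p, miR-137-3p and miR-384-5p. It was -1.87, -1.26 and -1.30 for miR-582-5p, miR-29c-3p and miR-30a-5p.

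A list of 8 miRNAs of neurons, written from general knowledge, was set beside the arms, whose cells of origin were not determined here. All 8 were tested and 7 were detected on all 18 arrays, among them miR-124-3p, a defining miRNA of neurons. The median core minus peri of the list was 0.02 in sham-operated rats, -0.20 after tMCAO and -0.21 in PostC rats, where the medians of all tested probes were 0.02, -0.03 and 0.05. After tMCAO 5 of the 8 were lower in core. Core minus peri in these rats was -0.38 ± 0.33 for miR-124-3p and ranged from -2.65 ± 1.72 for miR-153-3p to 0.87 ± 1.48 for miR-218a-5p, with miR-138-5p (0.28 ± 0.28) and miR-129-5p (0.19 ± 0.30) also above 0. The summed linear level of the list is carried mainly by its brightest members, miR-128-3p, miR-132-3p and miR-124-3p. The sum was 72053 to 85614 in tMCAO core, below all 3 tMCAO peri arrays (86745 to 113936). How often other sets of probes do likewise was not counted. In sham-operated rats the sum was 76496 to 95878 in core and 83910 to 85785 in peri, with overlap, as in PostC rats (75935 to 87660 and 68439 to 91694). The part of this list's level in the levels of the arms was not tested. In the test of core against peri in PostC rats 0 of the 8 passed, where 0.752% of all probes did, and the list's median was -0.36 without PostC rat 3. In that of PostC against tMCAO 1 of the 8 passed, miR-218a-5p, where 5.64% of all probes did.

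Lists of miRNAs of other cells were read on the same arrays. Of 6 leukocyte miRNAs, miR-150-5p and miR-146a-5p were detected on all 18 arrays. The other 4, among them miR-142-3p and miR-142-5p, defining markers of blood cells, and miR-155-5p, were detected on 1 to 5 arrays, so their differences are not read. Of the 5 tested in PostC rats, miR-155-5p was past the threshold for core against peri (limma, adjusted p = 0.0421), as were 0.752% of all probes. It was detected on 3 arrays only, all of core tissue. It thus entered the tests only through the region where it is high, and its pass is not read either. Core minus peri of miR-150-5p was 0.02 ± 0.24 in sham-operated, 1.29 ± 0.15 in tMCAO and 0.87 ± 0.68 in PostC rats, where it was 0.47 without rat 3. That of miR-146a-5p was 0.03 ± 0.37, 0.73 ± 0.29 and 0.14 ± 0.38, the last 0.35 without PostC rat 3. Neither passed the test in PostC rats. The summed linear level of the list is carried mainly by miR-150-5p (mean log2 level 11.8, against 9.51 for miR-146a-5p). It was 7592 to 12363 in tMCAO core and 3468 to 4713 in tMCAO peri, the arrays on which the arms were lower and higher. In sham-operated rats it was 3297 to 4031 in core and 3073 to 3594 in peri, and in PostC rats 5968 to 8372 and 3245 to 4613.

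In sham-operated rats, where the 3p arm was higher in core, core minus peri of the oligodendrocyte miRNA miR-338-3p was 2.19 ± 1.01, and that of miR-219a-2-3p was -0.05 ± 0.23. The third of this list, miR-219a-5p, was detected on 8 arrays, none of them of tMCAO rats, and is not read. The summed level of these 3 was 4278 to 16306 in core and 2791 to 5888 in peri. The red blood cell miRNA miR-451-5p was at 0.95 ± 0.58, but miR-144-3p and miR-144-5p were not detected on any array. The summed level of the red blood cell list, in effect that of miR-451-5p, was 2373 to 4255 in sham core and 1266 to 1969 in sham peri. The endothelial miRNA miR-126a-3p was at 0.57 ± 0.23, and miR-126a-5p, detected on 4 arrays, is not read. The summed level of these endothelial miRNAs is carried almost wholly by miR-126a-3p. It was 8342 to 15619 in sham core and 6214 to 8406 in sham peri, against 3747 to 7364 in tMCAO core and 5256 to 6933 in tMCAO peri. All 3 tMCAO cores thus lay below all sham cores for this sum too, as for 24.2% of all tested probes. After tMCAO, where both arms were lower in core, miR-451-5p was at 0.64 ± 0.13, miR-219a-2-3p at 0.49 ± 0.21, miR-338-3p at -0.29 ± 0.79 and miR-126a-3p at -0.09 ± 0.41. In PostC rats miR-338-3p was at -1.62 ± 1.61, miR-219a-2-3p at -0.39 ± 0.38, miR-451-5p at -0.68 ± 1.61 and miR-126a-3p at -0.59 ± 0.60, and no tested member of these lists passed. Without PostC rat 3 they were at -2.16, -0.51, 0.14 and -0.40. The part of these cells in the levels of the arms was not tested.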

How the data were processed

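MicroRNAs were measured in 18 brain samples of 9 rats. The deposited array files hold each spot's median intensity before any correction. The authors also deposited linear intensities after background subtraction and locally weighted regression. All 18 columns of that table were mapped by name. The labels name a miRNeasy kit for the RNA and the methods name Trizol, and the organism label reads Rattus rattus for a strain of Rattus norvegicus. The methods give several times of sacrifice after reperfusion and do not say which applies to the arrays.

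Spot intensities were background-corrected with normexp (offset 50), put on the log2 scale and normalized by cyclic loess with control spots at weight 0, and the 4 spots of a probe were averaged. This makes every value relative to the other miRNAs. As no local background is given, detection required a probe's median spot to lie over 3 scaled median absolute deviations above the median of 612 empty spots. Detection on 3 or more arrays admitted 532 of 761 probes to the tests.

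Tests were run with limma 3.58.1 in R 4.3.3 (variance trend, Benjamini-Hochberg adjustment over all 532 probes or 156 arm pairs, threshold 0.05), on within-rat differences or on the mean of both regions, with 3 rats per group. Core and peri were paired because they come from the same animal, by the sample titles. Their deviations from the group means correlated between -0.51 and 0.49, above 0.1 in 4 of 9 rats. Rats alone are replicates. The p-values, SE and intervals rest on a spread shared by the 9 rats of all treatments and drawn towards that of other probes. They do not measure the spread of the 3 PostC rats alone. For 5p core minus peri the SD was 0.069 in sham-operated and 1.49 in PostC rats, so the SE printed for PostC understates the spread of its own rats. The fits were tested on simulated data.

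Comparisons of PostC with the other groups were planned as tests and are printed without p-values for the arms, whose choice rests on those groups. Values of the lists without PostC rat 3 and of tMCAO against sham without each rat were added after seeing the data. The pair and the lists of cell type miRNAs were chosen with earlier results of these data known. Named besides the pair were probes of the miR-9 family or within 2 edits of an arm, the 3 probes most correlated with each arm, and the list members. The other probes named (miR-149) passed a test counted here and were named after their values were seen. Alternatives were 2 kinds of plain background subtraction (floor of 1, from empty spots or the dimmest 25% of miRNA spots), quantile and median normalization, the deposited table (floor of 50), removal of the G and C trend, 2 filters, no variance trend, the replicate block, the methods' t-test and each rat left out. No genome was used here, so no positions are given. Plots were made with Python 3.11.15 and matplotlib 3.10.9.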

Additional observations from a re-analysis of the deposited data

Results flagged for a closer look

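The difference between core and peri of miR-9a-3p took opposite signs in different treatments, in every rat. It was positive in all 3 sham-operated rats and negative in all 3 tMCAO rats, and the means differed by -1.96 on the log2 scale. It was also negative in all 3 PostC rats, and the means of PostC and sham-operated rats differed by -1.50. These differences between groups were not tested, since the pair was chosen on the former and the latter shares its sham-operated rats. With the G and C trend removed these differences were -1.30 and -1.07, and with median scaling -0.98 and -1.11. With the G and C trend removed 1 sham-operated rat was at -0.011, and with median scaling 1 tMCAO rat was not lower in core. After quantile normalization 1 PostC rat was not lower in core. Of all tested probes 21.8% were higher in core in all 3 sham-operated rats. Shares of 24.6% and 10.2% were lower in core in all 3 tMCAO and all 3 PostC rats. How many probes changed sign as the 3p arm did was not counted, so how unusual this is cannot be told.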

How the results depend on the processing

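The 13 values of the arms were recomputed under each alternative, 239 values in all. Many of these could not change direction. The filters, the variance trend, the blocks and the t-test leave a difference as it is. So does a rat left out of another treatment, for a difference within a treatment. Of the 239, 225 kept their direction and side of the threshold or, where not tested, moved by less than the spread between rats. This count is therefore no measure of stability. Only 5p in PostC against tMCAO changed side of the threshold, under 1 alternative, and that comparison is not read as a test. For 3p in PostC against sham the sign turned with plain subtraction (-0.24) and median scaling (-0.16), and leaving out rats gave -0.24 to 0.44. Leaving out rats gave -0.99 to 0.41 for 5p core minus peri in PostC rats, -0.33 to 1.19 for the arm difference there, and 0.45 to 1.13 for 5p in PostC against tMCAO. In sham-operated rats the 5p difference moved to -0.11 (quantile), -0.19 (median scaling), -0.082 (deposited intensities) and -0.32 (G and C trend removed), and the 3p difference to 0.34 (G and C trend removed). The cause was not tested. Median scaling moved the median of all probes in tMCAO against sham from -0.018 to -0.21.

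Numbers of probes passed were small and moved with the settings, from 0 to 13 for core against peri in PostC rats, 0 to 3 for PostC against sham, 3 to 46 for PostC against tMCAO and 0 to 4 for the arm pairs. The replicate number as a block left the miR-9a values as they were (5p in PostC 0.85 against tMCAO and -0.35 against sham, 3p 0.47 and 0.04). In this balanced design it cannot change them. With the block 22 probes passed against tMCAO and 0 against sham. Rats of equal number in different treatments share only a number: their deviations correlated above 0.1 in 2 of 9 pairs. Ignoring the rat (no replicate block) likewise cannot change the core minus peri values in PostC rats (-0.72 for 3p, -0.15 for 5p and 0.57 for the arm difference). The adjusted p were then 0.542, 0.933 and 0.516 (limma). The methods' t-test found 48 probes for PostC against sham and 94 against tMCAO at an unadjusted p under 0.05, and 0 and 6 after Benjamini-Hochberg adjustment, where limma found 75 and 98, and 1 and 30. Adjusted p over all alternatives ranged from 0.155 to 0.632 for 3p and from 0.239 to 1 for 5p in PostC core against peri.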
